A study of Homo sapiens with 32 samples.

Results

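The genes described here act in G2 and mitosis, the end of the cell cycle in which cells prepare to divide, separate their chromosomes and split. They are 59 genes listed by symbol: 15 kinases and cyclins, 9 kinesins, 13 genes of the kinetochore and spindle checkpoint, and 22 others that act in cytokinesis, chromosome structure, anaphase onset and related steps. All 59 were found, among 10829 genes with a decay rate in both lines. MDA-LM2, a derivative line selected for metastasis to the lung, was set against its parent MDA-MB-231, an established line of human breast cancer cells. Cells of both lines were given 4-thiouridine (4sU), a uridine analogue that enters newly made RNA, for 2 h. The label was then chased with excess uridine, and labelled RNA was purified and sequenced at 0, 2, 4 and 7 h. The 32 libraries gave 4 replicate series per line, and the deposited tables hold 1 decay rate per RefSeq transcript and series. The comparison addressed how transcript stability differs in MDA-LM2.

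Transcripts of many mitotic genes accumulate in G2 and are used in a short window, after which cyclins and other mitotic proteins are destroyed. Entry into mitosis depends on CDK1 bound to A- and B-type cyclins, which CDC25 phosphatases switch on and WEE1 holds back. Kinesins then build and move the spindle, kinetochores join chromosomes to it, and the spindle checkpoint delays anaphase until every chromosome is attached. The amount of such an mRNA depends on its decay as well as its synthesis, and the rates here bear on the decay of RNA made during the pulse.

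A rate is positive where labelled RNA fell with time, and a higher rate means faster decay. The scale of the rates is not stated in those sources that were used, so they are given in the deposited unit and no half-life was derived. A gene's rate is the median over its transcripts in each series, each error is an SD over 4 series, and differences are MDA-LM2 minus MDA-MB-231, so that a negative one means slower decay in MDA-LM2. Rates beyond 1 either side of 0 lie far from the bulk of the table, and a gene is called in range here where all 8 of its rates lie within 1 of 0. That held for 46 of the 59 mitotic genes (78.0%) and for 66.7% of all genes. Of the 36 mitotic genes with a single transcript, 35 were in range (FOXM1 was not), and of the 23 with several transcripts 11 were.

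Mitotic mRNAs decayed close to the middle of all genes in both lines. Their median rate was 0.155 ± 0.0206 in MDA-LM2, against 0.168 ± 0.0182 in MDA-MB-231, and the median over all genes was 0.165 ± 0.0106 in MDA-LM2, against 0.189 ± 0.0152 in MDA-MB-231 (SD, n = 4 series each). The class medians spanned a wider range than the gap between the lines in any class. Kinases and cyclins had the highest class median, at 0.233 ± 0.0392 in MDA-LM2, against 0.274 ± 0.0595 in MDA-MB-231. Kinesins had a median of 0.168 ± 0.0233 in MDA-LM2, against 0.146 ± 0.0414 in MDA-MB-231. Kinetochore and checkpoint genes had a median of 0.143 ± 0.0230 in MDA-LM2, against 0.127 ± 0.0165 in MDA-MB-231. The 22 others had a median of 0.123 ± 0.0137 in MDA-LM2, against 0.155 ± 0.0220 in MDA-MB-231, so that the order of the last 3 classes was not the same in both lines. In range were 10 of the 15 kinases and cyclins, all 9 kinesins, 12 of the 13 kinetochore and checkpoint genes and 15 of the 22 others. Within every class the genes spread widely, as the plot of rates by series shows. Over the 46 genes in range the mean rates of the lines had a rank correlation of 0.727, and over all 7224 genes in range it was 0.587. These correlations are across genes, which are not independent replicates.

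**Figure D1:**
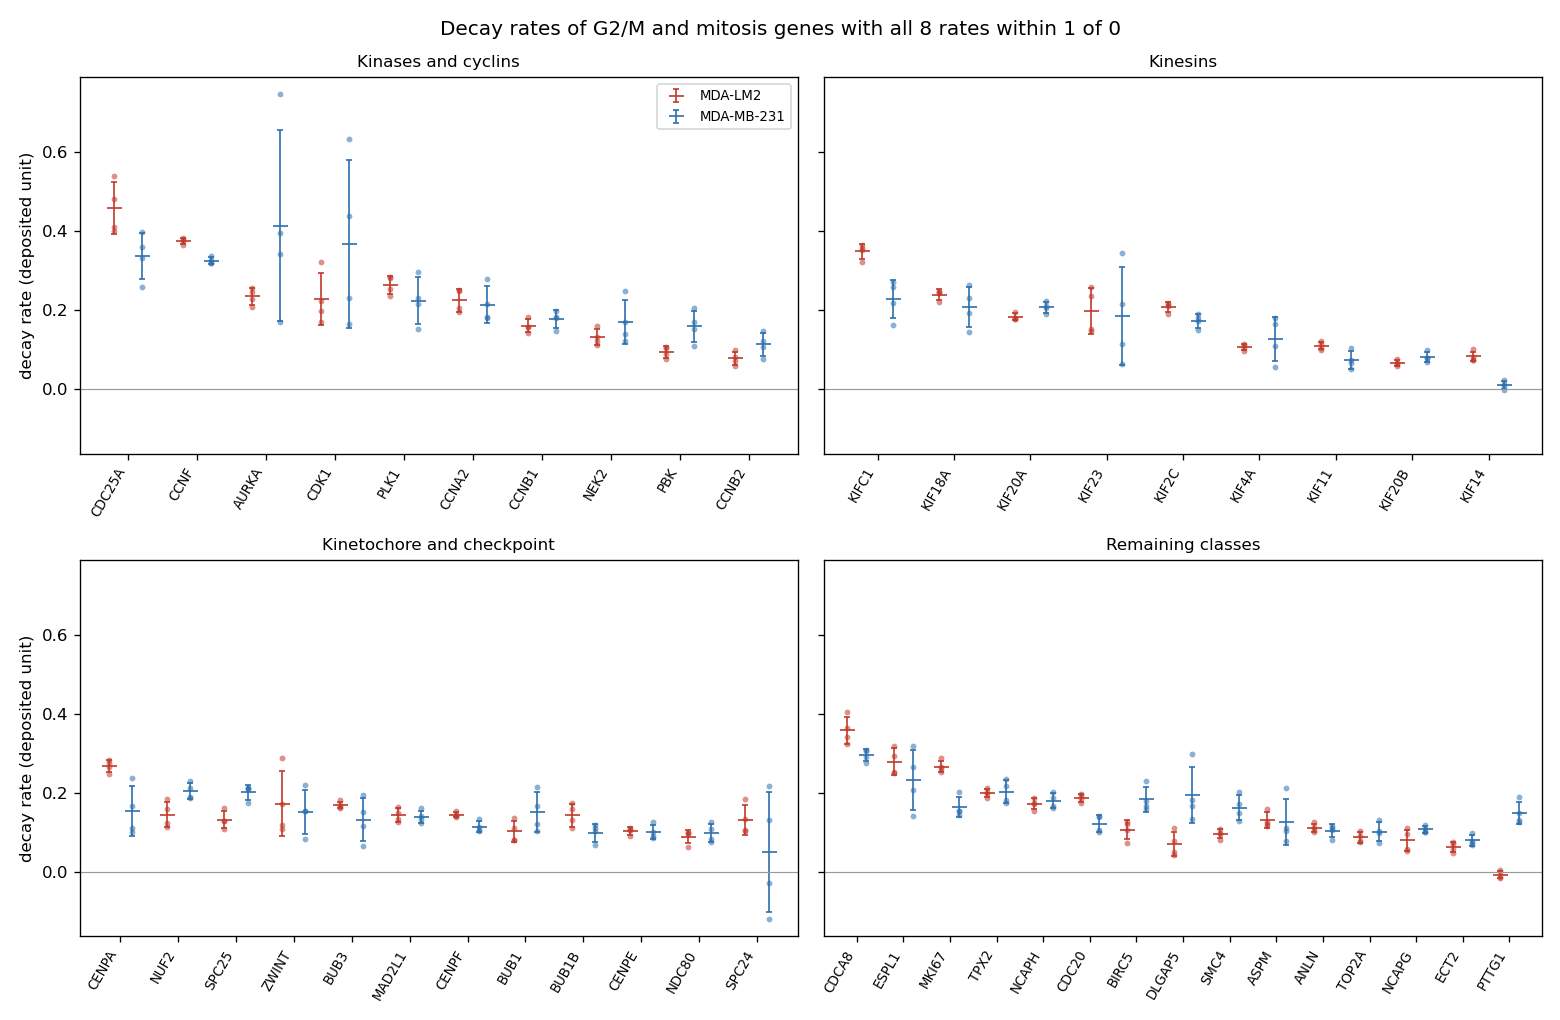
Decay rate (vertical axis, deposited unit) of the 46 G2/M and mitosis genes with all 8 rates within 1 of 0, ordered in each panel by mean rate over both lines. Points are the 4 series of MDA-LM2 (red, left of each gene's tick) and of MDA-MB-231 (blue, right), bars are the mean ± SD; CDC25A, CCNF, KIFC1 and CDCA8 stand high, KIF20B and ECT2 stand low in both lines, KIF14 is near 0 in MDA-MB-231 and PTTG1 is near 0 in MDA-LM2.

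Few mitotic mRNAs were called different between the lines, as was the case over all genes. A gene without a call is not thereby shown to be unchanged. By limma's moderated test on all genes, with Benjamini-Hochberg adjustment at 0.05, 2 of the 59 decayed more slowly in MDA-LM2 (3.39%, against 6.71% of all genes) and 2 decayed faster (3.39%, against 2.00% of all genes). AURKB and PTTG1 were the slower ones, KIF14 and MKI67 the faster ones. The median difference of the mitotic genes was -0.00239, against -0.0539 over all genes. Among genes in range it was 0.00337 for the mitotic genes, 24 of 46 being higher in MDA-LM2, and -0.0169 for all genes. Within a line, series 1 and 3, and series 2 and 4, share the second number of their label and resembled each other. Over genes in range, their rank correlations were 0.914 and 0.886 in MDA-LM2, against 0.786 and 0.641 in MDA-MB-231. The other pairs of series had 0.764 to 0.779 in MDA-LM2, against 0.304 to 0.429 in MDA-MB-231. With a correlation between such series in the limma fit (0.457, estimated from the data), AURKB and PTTG1 were still called (adjusted p = 0.00156 and 0.0185) and no mitotic gene was called faster. That fit called 3.18% of all genes slower and 0.323% faster, and in it KIF14 and MKI67 had adjusted p of 0.0789 and 0.110. With each series centred on its median over all genes, 2 mitotic genes were called slower (5.17% of all genes) and 7 faster (4.01% of all genes), namely BUB1B, CDC20, CENPF, KIF11, KIF14, KIFC1 and MKI67. Over all genes the calls then fell into 560 slower and 434 faster, against 727 slower and 217 faster without centring, and the median difference of the mitotic genes was 0.02. Whether separate cultures stood behind the 4 series is not stated, and a p-value here covers the spread between series and nothing wider.

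The 4 rates of the lines did not overlap for 18 mitotic genes. They were all lower in MDA-LM2 for 8 (13.6%, against 17.6% of all genes), namely AURKB, PBK, NUF2, SPC25, BIRC5, DLGAP5, SMC4 and PTTG1. They were all higher in MDA-LM2 for 10 (16.9%, against 5.61% of all genes), namely CDC25A, CCNF, CENPA, CENPF, KIFC1, KIF2C, KIF14, CDCA8, MKI67 and CDC20. The lower group holds 2 subunits of the NDC80 complex of the kinetochore, and the higher group holds 3 of the 9 kinesins. In the lower group AURKB, NUF2, BIRC5 and DLGAP5 have several transcripts. Their gene medians did not overlap, but the rates of each of their single transcripts did. MKI67, in the higher group, also has several transcripts, not all of which were free of overlap. By the differential score in the authors' deposited table, read as 1 minus a two-sided p with the sign turned towards slower decay in MDA-LM2, 2 transcripts of these genes passed the same adjustment as slower (4.49% of all transcripts did) and 2 as faster (1.07% of all transcripts did). In the authors' deposited table the slower ones were PTTG1, with a score of 0.9992, and 1 transcript of SMC2, with 0.9997. In the authors' deposited table the faster ones were KIF14 and CCNF, each with a score of -0.9999.

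**Figure D2:**
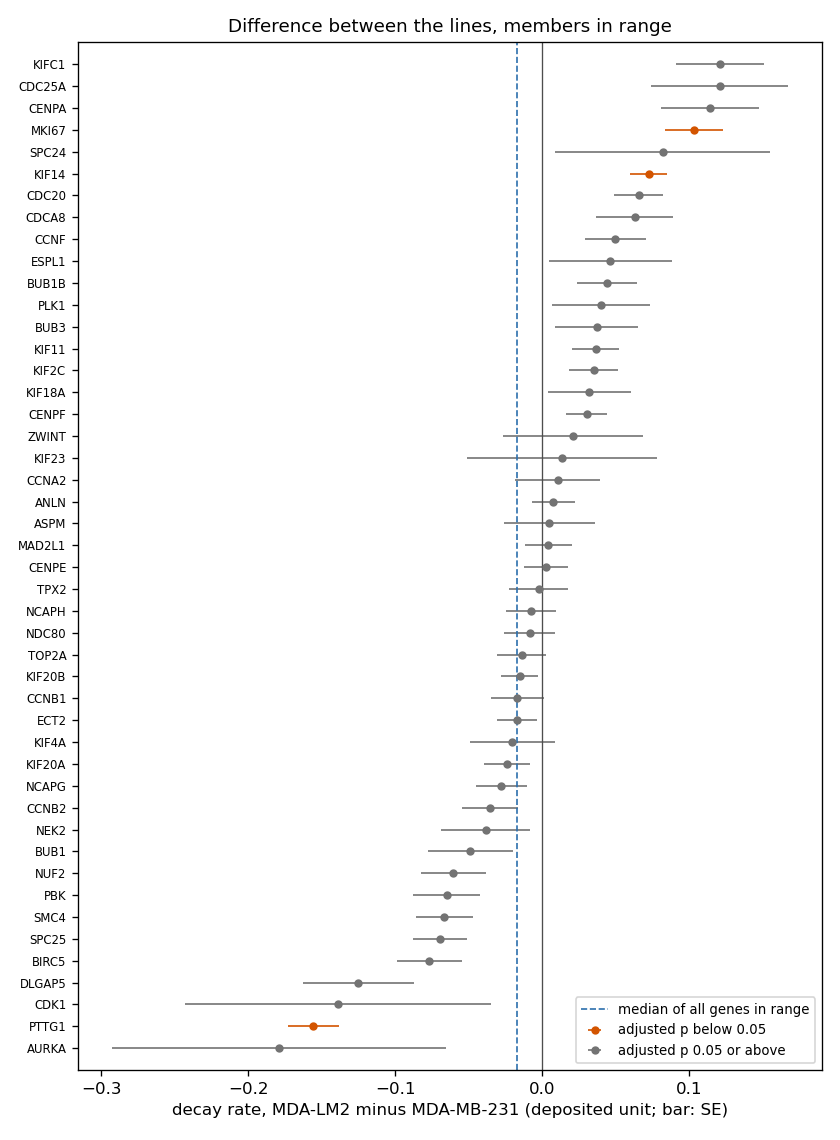
Difference in decay rate (horizontal axis, MDA-LM2 minus MDA-MB-231, deposited unit) of the 46 mitotic genes in range, ordered by difference, with the standard error of limma's fit as bars. Points left of 0 decayed more slowly in MDA-LM2; of the 3 called genes in the plot PTTG1 lies to the left at -0.16, KIF14 at 0.07 and MKI67 at 0.10 to the right, and the dashed line is the median of all genes in range.

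PTTG1 encodes securin, which holds separase inactive until anaphase and is then destroyed. Its rates were -0.0140, -0.000992, -0.0168 and 0.00313 in MDA-LM2, against 0.126, 0.130, 0.189 and 0.150 in MDA-MB-231. All 4 rates of MDA-LM2 lay close to 0, the slowest mean of the mitotic genes in range in that line, and all 4 of MDA-MB-231 lay well above them. The difference was -0.16 ± 0.0175 (SE), with an adjusted p of 0.00201 by limma. It was called without any 1 of the 8 series in turn (adjusted p 0.00157 to 0.0132), but not in a fit to genes in range with the correlation between series (adjusted p = 0.0865 by limma). PTTG1 has near-identical copies elsewhere in the genome, among them PTTG3P, and reads of the copies may have been shared between them by the counting. The rates listed for PTTG3P were 0.0470, 0.243, 0.130 and 0.263 in MDA-LM2, against 0.147, -0.196, 0.0915 and -0.0237 in MDA-MB-231, and they overlapped between the lines. ESPL1, separase itself, averaged 0.279 ± 0.0335 in MDA-LM2, against 0.233 ± 0.0768 in MDA-MB-231, and its rates overlapped (adjusted p = 0.479 by limma). CDC20, which activates the ubiquitin ligase that destroys securin, averaged 0.188 ± 0.00984 in MDA-LM2, against 0.122 ± 0.0216 in MDA-MB-231. Its rates did not overlap, and its adjusted p of 0.0579 by limma lay just outside the threshold. For CDC20 the adjusted p by limma was 0.250 with the correlation between series and 0.180 with a replicate block.

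AURKB encodes the kinase of the chromosomal passenger complex, which corrects faulty attachments of chromosomes to the spindle. Its gene rates were 0.367, 0.250, 0.431 and 0.338 in MDA-LM2, against 1.46, 1.69, 1.61 and 1.52 in MDA-MB-231, a difference of -1.22 ± 0.0957 (SE; adjusted p = 0.000223 by limma). The series of each line lay close together and far from those of the other line. The 2 transcripts behind these medians did not. In MDA-MB-231 the transcript NM_004217 had rates of 3.07, 0.141, 3.13 and 0.0877, high in series 1 and 3. The other, NM_001256834, had -0.153, 3.25, 0.0897 and 2.95 in MDA-MB-231, high in series 2 and 4. In MDA-LM2 the rates were 0.235, 0.274, 0.188 and 0.219 for NM_004217 and 0.500, 0.227, 0.673 and 0.458 for NM_001256834. The median of a gene with 2 transcripts is their mean, and neither transcript was called in the fit on transcripts (adjusted p = 0.30 and 0.44 by limma). With limma's robust moderation AURKB was not called either (adjusted p = 0.0540). Its partners in the complex were not called. CDCA8 is described with the remaining genes. BIRC5 (survivin) averaged 0.106 ± 0.0239 in MDA-LM2, against 0.183 ± 0.0327 in MDA-MB-231 (adjusted p = 0.0847 by limma). The gene rates of BIRC5 did not overlap, but those of each of its transcripts did. INCENP had rates on both sides of 0 in both lines, from -0.805 to 1.25 in MDA-LM2 and from -0.862 to 1.13 in MDA-MB-231.

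**Figure D3:**
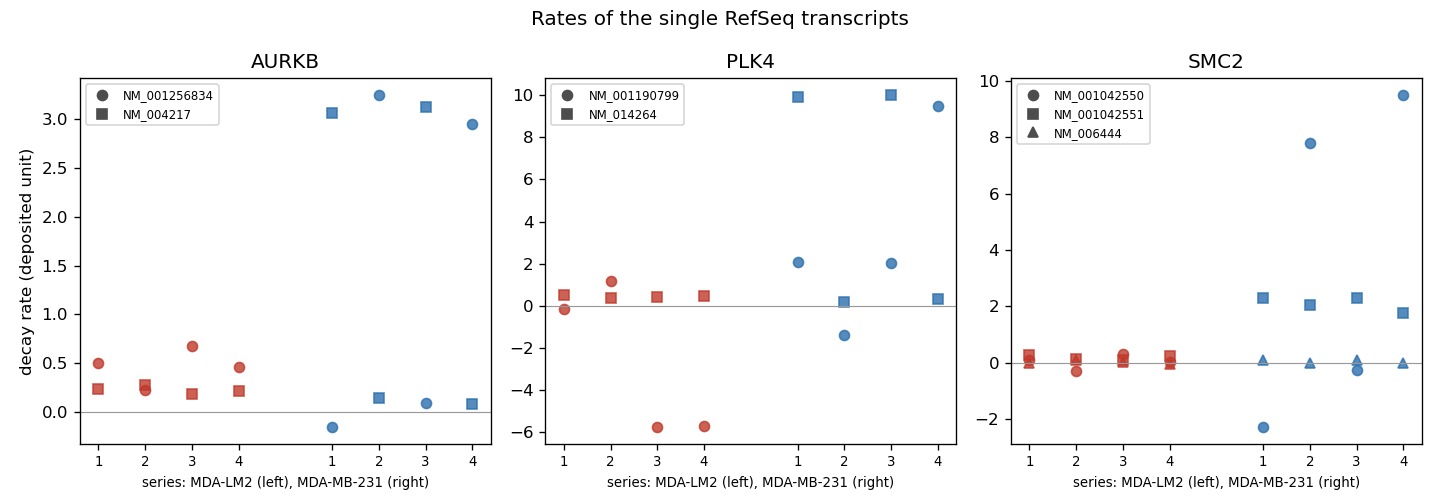
Decay rates (vertical axes, deposited unit, each panel with its own range) of the single RefSeq transcripts of AURKB, PLK4 and SMC2 in series 1 to 4 of MDA-LM2 (red, left) and of MDA-MB-231 (blue, right), with a marker shape for each transcript. In MDA-MB-231 1 AURKB transcript is near 3 in series 1 and 3 and the other in series 2 and 4, while in MDA-LM2 both stay below 1.

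KIF14 encodes a kinesin needed to finish cytokinesis. Its rates were 0.0736, 0.10, 0.0808 and 0.0743 in MDA-LM2, against 0.0127, 0.00615, 0.0234 and -0.00295 in MDA-MB-231. The 4 rates of MDA-MB-231 were near 0, and the lowest of MDA-LM2 was above all of them. The difference was 0.07 ± 0.0126 (SE), with an adjusted p of 0.0159 by limma, and it was called in 6 of the 8 fits that left out 1 series (adjusted p 0.0234 to 0.0592). It lost the call without series 1 of MDA-LM2 (adjusted p = 0.0501 by limma) and without series 3 of MDA-LM2 (0.0592).

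MKI67 encodes Ki-67, the protein that coats mitotic chromosomes and serves as a marker of dividing cells. Its gene rates were 0.254, 0.287, 0.260 and 0.265 in MDA-LM2, against 0.145, 0.153, 0.154 and 0.201 in MDA-MB-231. The rates did not overlap, and series 4 of MDA-MB-231 stood apart towards those of MDA-LM2. The difference was 0.10 ± 0.0198 (SE; adjusted p = 0.0227 by limma). Leaving out 1 series kept the call in 2 of 8 fits (adjusted p 0.0137 to 0.0716), and it was lost without each series of MDA-LM2 in turn and without series 1 or 3 of MDA-MB-231. Neither of its 2 transcripts was called in the fit on transcripts (adjusted p = 0.0851 and 0.277 by limma), although both had a higher mean in MDA-LM2.

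Among the cyclins, CCNB2 had the slowest mean of the kinase and cyclin class in range. Its rates were 0.0814, 0.0977, 0.0587 and 0.0716 in MDA-LM2, against 0.0768, 0.106, 0.146 and 0.122 in MDA-MB-231, and they overlapped (difference -0.04 ± 0.0190 (SE), adjusted p = 0.275 by limma). CCNB1, the other main B-type cyclin, had a higher mean than CCNB2 in both lines, with 0.160 ± 0.0168 in MDA-LM2, against 0.177 ± 0.0222 in MDA-MB-231. CCNA2, the A-type cyclin that acts from S phase into mitosis, averaged 0.224 ± 0.0284 in MDA-LM2, against 0.214 ± 0.0458 in MDA-MB-231. CCNF, a cyclin that works as the substrate adaptor of a ubiquitin ligase, was the fastest cyclin, at 0.375 ± 0.00688 in MDA-LM2, against 0.325 ± 0.00842 in MDA-MB-231. The rates of CCNF were tight within each line and did not overlap. By limma, which lends each gene some of the spread of other genes, its difference of 0.05 ± 0.0207 (SE) had an adjusted p of 0.184, although the score in the authors' deposited table passed. CDK1, the kinase they drive, had rates from 0.170 to 0.320 in MDA-LM2 and from 0.164 to 0.632 in MDA-MB-231.

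The enzymes that switch CDK1 held the fastest gene in range and 3 genes out of range. CDC25A, a phosphatase that activates cyclin-dependent kinases, had the fastest mean over both lines of the mitotic genes in range, with rates of 0.541, 0.411, 0.480 and 0.399 in MDA-LM2, against 0.398, 0.258, 0.333 and 0.359 in MDA-MB-231. Its slowest series in MDA-LM2 lay just above the fastest in MDA-MB-231, and the difference of 0.12 ± 0.0466 (SE) was not called (adjusted p = 0.155 by limma). CDC25C, its relative at mitotic entry, had rates of 0.342, 0.358, 0.290 and 4.93 in MDA-LM2, against 1.5, 1.19, 1.67 and 1.34 in MDA-MB-231. Series 4 of MDA-LM2 stood far above the others, and without it the difference was -1.09, in place of 0.06 (adjusted p = 0.0108 by limma). Its transcripts were as uneven: NM_022809 had 9.69 in series 4 of MDA-LM2 and NM_001790 had 2.66 in series 4 of MDA-MB-231. CDC25B ranged from 0.0530 to 1.88 in MDA-LM2 and from 0.0940 to 2.36 in MDA-MB-231, and WEE1 from 0.360 to 1.44 in MDA-LM2 and from 0.291 to 1.35 in MDA-MB-231. Both thus had rates beyond 1 in both lines and overlapped.

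Of the 6 mitotic kinases, PLK1, a kinase active from mitotic entry to cytokinesis, was in range with 0.263 ± 0.0232 in MDA-LM2, against 0.223 ± 0.0597 in MDA-MB-231. PLK4, which starts the duplication of centrioles, had the largest difference of its class. Its rates were 0.163, 0.767, -2.68 and -2.63 in MDA-LM2, against 5.99, -0.609, 6.03 and 4.91 in MDA-MB-231, which overlapped through series 2 of MDA-MB-231. The difference was -5.18 ± 1.70 (SE; adjusted p = 0.108 by limma), and without that series it was -6.74 (adjusted p = 0.0125). The 2 transcripts behind these means were unlike. In MDA-MB-231 1 had rates of 9.93, 0.190, 10.0 and 0.309, and in MDA-LM2 0.504, 0.371, 0.420 and 0.441. The other had 2.05, -1.41, 2.05 and 9.51 in MDA-MB-231, against -0.179, 1.16, -5.77 and -5.71 in MDA-LM2. Neither was called in the fit on transcripts (adjusted p = 0.296 and 0.251 by limma). AURKA, a kinase of spindle poles with 6 transcripts in the tables, ranged from 0.208 to 0.255 in MDA-LM2 and from 0.171 to 0.747 in MDA-MB-231. NEK2, a centrosome kinase, averaged 0.131 ± 0.0202 in MDA-LM2, against 0.170 ± 0.0564 in MDA-MB-231. PBK, a mitotic kinase, averaged 0.0935 ± 0.0143 in MDA-LM2, against 0.158 ± 0.0401 in MDA-MB-231, and its rates did not overlap (adjusted p = 0.125 by limma).

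All 9 kinesins were in range, and 6 had a higher mean in MDA-LM2. KIFC1, a minus-end-directed motor that bundles spindle poles, was the fastest of them and had the largest difference. Its rates were 0.364, 0.352, 0.321 and 0.357 in MDA-LM2, against 0.218, 0.163, 0.259 and 0.271 in MDA-MB-231. The rates did not overlap, and the difference of 0.12 ± 0.0297 (SE) lay just outside the threshold (adjusted p = 0.0525 by limma). For KIFC1 the adjusted p by limma was 0.251 with the correlation between series and 0.187 with a replicate block. KIF2C, which takes microtubules apart at kinetochores, averaged 0.207 ± 0.0115 in MDA-LM2, against 0.173 ± 0.0175 in MDA-MB-231 and did not overlap either. KIF18A, which limits the movement of chromosomes, averaged 0.239 ± 0.0132 in MDA-LM2, against 0.207 ± 0.0509 in MDA-MB-231. KIF11, the motor that pushes spindle poles apart, averaged 0.109 ± 0.00921 in MDA-LM2, against 0.0731 ± 0.0227 in MDA-MB-231. Both overlapped between the lines. The related KIF20A and KIF20B, which act in cytokinesis, stood apart from each other in both lines: KIF20A averaged 0.183 ± 0.00875 in MDA-LM2, against 0.207 ± 0.0141 in MDA-MB-231, and KIF20B averaged 0.0655 ± 0.00704 in MDA-LM2, against 0.0806 ± 0.0131 in MDA-MB-231. KIF4A and KIF23, which work at the midzone between the separating chromosomes, overlapped between the lines, with means of 0.106 and 0.198 in MDA-LM2, against 0.127 and 0.185 in MDA-MB-231.

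No kinetochore or checkpoint gene was called in either direction. CENPA, the histone variant that marks centromeres, had the fastest mean over both lines of those in range, with rates of 0.266, 0.275, 0.282 and 0.247 in MDA-LM2, against 0.10, 0.238, 0.166 and 0.110 in MDA-MB-231. The highest series of MDA-MB-231 came close to the lowest of MDA-LM2 without reaching it (difference 0.11 ± 0.0332 (SE), adjusted p = 0.0840 by limma). Without series 2 of MDA-MB-231 the adjusted p by limma was 0.0134. Leaving out any other single series gave 0.132 to 0.195, and the correlation between series gave 0.329. The subunits of the NDC80 complex, which grips microtubules at the kinetochore, did not share a rate. SPC25 averaged 0.132 ± 0.0216 in MDA-LM2, against 0.202 ± 0.0188 in MDA-MB-231 and NUF2 averaged 0.145 ± 0.0326 in MDA-LM2, against 0.205 ± 0.0205 in MDA-MB-231, neither overlapping between the lines (adjusted p = 0.0668 for SPC25 and 0.136 for NUF2 by limma). Each of the 2 transcripts of NUF2 did overlap (adjusted p = 0.468 and 0.735 by limma on transcripts). NDC80 itself averaged 0.0888 ± 0.0170 in MDA-LM2, against 0.0975 ± 0.0231 in MDA-MB-231. SPC24, with the slowest mean over both lines of the class in range, had 0.104, 0.184, 0.105 and 0.134 in MDA-LM2, against -0.121, 0.217, -0.0282 and 0.130 in MDA-MB-231. In MDA-MB-231 its series 1 and 3 were below 0 and its series 2 and 4 above, so that the rates of the lines overlapped (difference 0.08 ± 0.0733 (SE), adjusted p = 0.476 by limma).

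The checkpoint genes BUB1, BUB1B, BUB3 and MAD2L1, whose proteins hold back anaphase while a kinetochore is unattached, lay between 0.0803 and 0.181 in MDA-LM2 and between 0.0655 and 0.215 in MDA-MB-231 in single series, and each overlapped between the lines. TTK, the kinase that starts the checkpoint signal, had rates of 0.145, 0.188, 0.125 and 0.151 in MDA-LM2, against 0.190, 1.54, 0.151 and 1.64 in MDA-MB-231. Series 2 and 4 of MDA-MB-231 stood high and the other series of both lines lay below 0.2 (difference -0.73 ± 0.380 (SE), adjusted p = 0.271 by limma). Of its transcripts only NM_001166691 was high there, with 2.97 and 3.15 in series 2 and 4 of MDA-MB-231, while NM_003318 had between 0.117 and 0.214 in MDA-MB-231. CENPE and CENPF, large proteins of the outer kinetochore, averaged 0.103 and 0.144 in MDA-LM2, against 0.101 and 0.114 in MDA-MB-231. Of these CENPF did not overlap between the lines. ZWINT, a scaffold of the kinetochore, overlapped, with means of 0.173 ± 0.0825 in MDA-LM2, against 0.152 ± 0.0558 in MDA-MB-231.

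Among the 22 remaining genes CDCA8, a partner of AURKB in the passenger complex, was the fastest in range, with rates of 0.364, 0.405, 0.324 and 0.340 in MDA-LM2, against 0.308, 0.306, 0.275 and 0.292 in MDA-MB-231. The rates did not overlap, and the difference of 0.06 ± 0.0260 (SE) was not called (adjusted p = 0.180 by limma). ECT2, the exchange factor that starts the cleavage furrow, was among the slowest in both lines, with 0.0621 ± 0.0128 in MDA-LM2, against 0.0794 ± 0.0134 in MDA-MB-231. The scaffold ANLN and TOP2A, the enzyme that untangles sister chromosomes, were also slow, at 0.111 and 0.0871 in MDA-LM2, against 0.104 and 0.101 in MDA-MB-231. Among the condensin genes, NCAPG averaged 0.0792 and SMC4 0.0959 in MDA-LM2, against 0.107 for NCAPG and 0.163 for SMC4 in MDA-MB-231, while NCAPH averaged 0.172 in MDA-LM2, against 0.180 in MDA-MB-231. Rates of SMC4 did not overlap (adjusted p = 0.0842 by limma). DLGAP5, a protein of spindle fibres near chromosomes, averaged 0.0701 ± 0.0302 in MDA-LM2, against 0.195 ± 0.0714 in MDA-MB-231 and did not overlap (adjusted p = 0.0920 by limma). Each of the 2 transcripts of DLGAP5 did overlap. The spindle proteins TPX2 and ASPM overlapped, with means of 0.20 and 0.130 in MDA-LM2, against 0.202 and 0.126 in MDA-MB-231.

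SMC2, the partner of SMC4, depended on the transcript. Its transcript NM_001042551 had rates of 0.255, 0.137, 0.108 and 0.249 in MDA-LM2, against 2.29, 2.06, 2.29 and 1.74 in MDA-MB-231, all 4 far above those of MDA-LM2 (adjusted p = 0.000383 by limma on transcripts). NM_006444 had 0.00341, 0.0902, 0.0399 and -0.0504 in MDA-LM2, against 0.0951, 0.00431, 0.0803 and -0.00578 in MDA-MB-231, which overlapped. In the fit on transcripts, SMC2 NM_001042551 and PTTG1 were called slower and KIF14 faster, the 3 calls among 93 transcripts of mitotic genes (6.04% of all transcripts were called slower and 1.90% faster). As a gene, SMC2 was not called (difference -0.91 ± 0.488 (SE), adjusted p = 0.275 by limma). In all, 26 of the 57 transcripts of mitotic genes with several transcripts had every rate in range. How reads were divided among the transcripts of a gene is not given in the sources used here.

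PRC1, which bundles microtubules at the midzone, and HMMR, a spindle protein, had gene rates beyond 1 in all 4 series of MDA-MB-231. PRC1 had -0.00895, 1.48, 0.0144 and 0.233 in MDA-LM2, against 1.29, 1.25, 5.97 and 2.75 in MDA-MB-231, a difference of -2.38 ± 1.10 (SE; adjusted p = 0.224 by limma). All series of MDA-MB-231 were above 1 and series 2 of MDA-LM2 reached into them. HMMR had 4.80, 0.208, 4.85 and 0.0594 in MDA-LM2, against 5.31, 1.60, 1.14 and -2.98 in MDA-MB-231, a difference of 1.21 ± 2.03 (SE; adjusted p = 0.693 by limma). Series 1 and 3 of MDA-LM2 were high, and without series 4 of MDA-MB-231 the difference was -0.20. FOXM1, a transcription factor that drives mitotic genes, had 1 transcript and rates from 0.0586 to 0.473 in MDA-LM2 and from -8.46 to 1.73 in MDA-MB-231. UBE2C, the ubiquitin-conjugating enzyme of anaphase, and RACGAP1, a regulator of cytokinesis, were below 0.4 in every series of MDA-LM2. In MDA-MB-231 UBE2C had 0.0648, 0.132, 0.0398 and 9.13. All but the last of these lay below its lowest rate in MDA-LM2, 0.145. RACGAP1 had 2.45, -0.312, 2.53 and 0.156 in MDA-MB-231. Neither gene was called (adjusted p = 0.514 for UBE2C and 0.383 for RACGAP1 by limma).

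Other genes of the same cell cycle phase, from a further list of 128, were tested in the same fit. Of 125 measured, 1 was called slower in MDA-LM2 by limma, where 6.71% of all genes were, and 5 were called faster, where 2.00% of all genes were. The slower one was DSN1, a kinetochore linker, which averaged 0.318 ± 0.0497 in MDA-LM2, against 1.36 ± 0.388 in MDA-MB-231 (adjusted p = 0.0189). CKAP2L, TACC3 and GTSE1, all tied to the spindle, were among the faster ones. CKAP2L averaged 0.304 ± 0.0272 in MDA-LM2, against 0.154 ± 0.00998 in MDA-MB-231 (adjusted p = 0.00493), TACC3 0.376 ± 0.0183 in MDA-LM2, against 0.199 ± 0.0404 in MDA-MB-231 (0.00897), and GTSE1 0.246 ± 0.00484 in MDA-LM2, against 0.106 ± 0.0378 in MDA-MB-231 (0.0102). HMGB2, a chromatin protein, averaged 0.382 ± 0.0745 in MDA-LM2, against 0.137 ± 0.0494 in MDA-MB-231 (adjusted p = 0.0182). With the correlation between series, CKAP2L and GTSE1 were called (adjusted p = 0.0275 and 0.0460 by limma) and the other 4 were not (0.0597 to 0.122). In the fit to genes in range with that correlation none of the 5 faster ones was called (adjusted p 0.106 to 0.169 by limma). Of 58 genes of DNA replication and S phase, 2 were called slower and 4 faster, and of 15 G1 cyclins, CDKs and CDK inhibitors, 3 were called slower and none faster, beside the same shares of all genes.

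Within the 35 mitotic genes with 1 transcript and all rates in range, the rate was set beside several sequence features, which the choice of genes did not use. The share of G and C in the coding sequence had the rank correlation of largest size in both lines. For the share of A and T in the 3′ untranslated region it was -0.507 in MDA-LM2, against -0.380 in MDA-MB-231. Lengths of both regions and motif counts had -0.276 to 0.0543 in MDA-LM2, against -0.337 to -0.115 in MDA-MB-231. The share of G and C in the coding sequence ranged from 34.7% for KIF20B to 61.4% for SPC24. Its rank correlation with the mean rate was 0.659 in MDA-LM2, against 0.482 in MDA-MB-231, and in single series it ran from 0.596 to 0.711 in MDA-LM2 and from 0.376 to 0.587 in MDA-MB-231. The 17 genes above the median share had a median rate of 0.207 in MDA-LM2, against 0.202 in MDA-MB-231, and the 18 at or below it had 0.0992 in MDA-LM2, against 0.105 in MDA-MB-231. The median share was 43.6% over these 35 genes and 49.8% over all genes with 1 transcript in range. CDC25A, CCNF, KIFC1 and CDCA8 were fast and had 50.5% to 58.9%. Of these CDC25A (50.5%) and CDCA8 (51.4%) lay close to the median of all genes. KIF20B, ECT2 and KIF14 were slow and had 34.7% to 39.0%, below both medians. PTTG1 (47.0%) in MDA-LM2 and SPC24 in both lines lay low for their composition, and KIF18A (37.6%) lay high. Over all 5953 genes with 1 transcript in range the rank correlation was 0.153 in MDA-LM2, against 0.0596 in MDA-MB-231, over 72 other mitotic genes it was 0.226 in MDA-LM2, against 0.189 in MDA-MB-231, and over 41 genes of S phase -0.00392 in MDA-LM2, against -0.0407 in MDA-MB-231. The points of each line share their libraries, base composition can also affect library preparation and sequencing, and the part of either in this relation was not tested. The correlations are descriptions across genes that are not independent replicates.

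**Figure D4:**
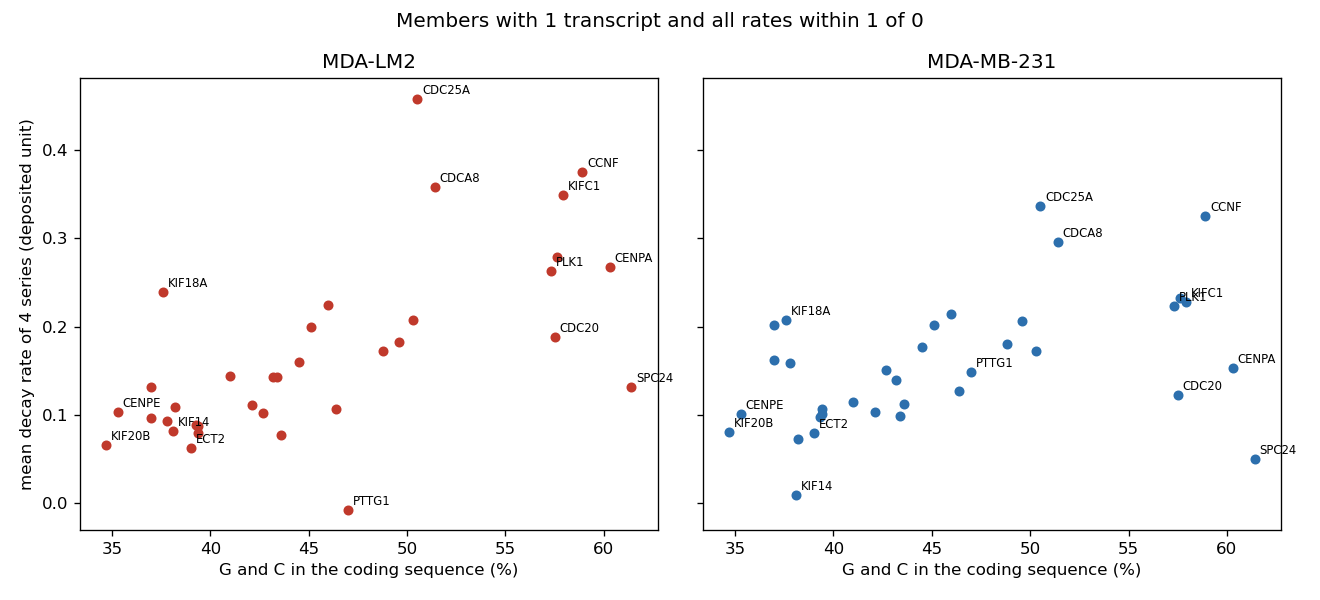
Mean decay rate of the 4 series (vertical axis, deposited unit) against the share of G and C in the coding sequence (horizontal axis, %) for the 35 mitotic genes with 1 transcript and all rates in range, in MDA-LM2 (left) and MDA-MB-231 (right). Genes near the lower left such as KIF20B, ECT2 and KIF14 and genes near the upper right such as CCNF and KIFC1 give rank correlations of 0.66 in MDA-LM2, against 0.48 in MDA-MB-231, with SPC24 in both lines and PTTG1 in MDA-LM2 low for their composition.

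The 3′ untranslated regions (UTRs) of these genes, where many decay factors bind, were searched on the transcript's own strand in the GENCODE release 29 transcripts (GRCh38). TGTANATA, the motif bound by the Pumilio proteins, which are known to speed mRNA decay, was found in 16 of the 35 mitotic genes (45.7%), against 30.6% of 5906 genes with 1 transcript in range and a 3′ UTR. The median length of these UTRs was 685 bases for the mitotic genes and 1273 bases for all. The 16 genes with the motif had a median rate of 0.121 in MDA-LM2, against 0.113 in MDA-MB-231, and the 19 without it had 0.188 in MDA-LM2, against 0.163 in MDA-MB-231, so that genes with the motif had the lower median, with ranges that overlapped widely. The AU-rich pentamer ATTTA was in 23 of the 35 genes (65.7%), against 74.4% of all. The nonamer TTATTTATT, which contains that pentamer and is the core of AU-rich elements in many short-lived mRNAs, was in 1 (2.86%, CENPE), against 9.04% of all. A match is a description of the sequence and not evidence that a factor binds there.

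Of the 16 genes with the Pumilio motif, CDCA8 had the highest mean rate in both lines, and in MDA-LM2 KIF18A came next at 0.239. MKI67, which also holds the motif, has 2 transcripts and is not among the 35 genes. The sites below are from the slow KIF20B (4 sites), CCNB2 and KIF14, from CCNB1, MKI67 and the fast CDCA8, with the nonamer of CENPE last. Each is a window of 30 bases within 1 exon of the 3′ UTR, written 5′ to 3′ along the mRNA with T for U, with the motif in capitals and the GRCh38 position and strand in brackets.
KIF20B site 1 (chr10:89774102-89774131, plus strand): gcatcctgtatTGTAAATAtaaatgtatat
KIF20B site 2 (chr10:89774114-89774143, plus strand): gtaaatataaaTGTATATAttatgcattaa
KIF20B site 3 (chr10:89774471-89774500, plus strand): atcacaaaacaTGTATATAcattatttaga
KIF20B site 4 (chr10:89774557-89774586, plus strand): tacatagtacaTGTATATAtttacggggta
CCNB2 (chr15:59124936-59124965, plus strand): actcttgatttTGTACATAgtcctctggtc
KIF14 (chr1:200551781-200551810, minus strand): tggagtgtagaTGTACATAtgaggatttcc
CCNB1 (chr5:69177679-69177708, plus strand): catgtgccatcTGTACATAttactgttgca
MKI67 (chr10:128098154-128098183, minus strand): agcttcagactTGTAGATAtaactcgttca
CDCA8 (chr1:37709609-37709638, plus strand): cctgagattttTGTATATAttgttctgagt
CENPE, nonamer (chr4:103105968-103105997, minus strand): ttgaattgttTTATTTATTtgtatattttg
KIF14, CCNB2 and CCNB1 share the octamer TGTACATA, at mean rates of 0.0822 for KIF14, 0.0774 for CCNB2 and 0.160 for CCNB1 in MDA-LM2, and of 0.00983 for KIF14, 0.113 for CCNB2 and 0.177 for CCNB1 in MDA-MB-231. CDCA8, with TGTATATA, decayed at 0.358 in MDA-LM2, against 0.295 in MDA-MB-231, well above the rates of KIF20B in both lines, which has that octamer at 3 of its sites. PTTG1 has a 3′ UTR of 63 bases and CDC25A one of 1799 bases, and neither holds the motif.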

How the data were processed

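Labelled RNA of MDA-LM2 and MDA-MB-231 was sequenced at 0, 2, 4 and 7 h after a 4sU pulse of 2 h (4 replicate series per line). The authors estimated a decay rate per RefSeq transcript and series from the fall in abundance with time, per the labels, and deposited the rates in a table for each line. They also deposited a differential score per transcript: its size equalled, within 0.001, 1 minus the p of a two-sided comparison with unequal variances, and its sign is positive where the mean rate was lower in MDA-LM2. The submitters' processing notes name TopHat, Cufflinks and hg18; their roles and versions, the log base of the rates, the handling of zeros and the use of strand were not given in the sources used here. Read depth is unknown, so no interval that needs it is given.

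Of 12966 transcripts in both tables, 12644 took a symbol from RefSeq's gene table of GRCh38.p14, a later build, 118 from GENCODE release 29, and 204 had none. All 59 listed genes matched. A gene's rate was the median over its transcripts (10829 genes, 9137 with 1 transcript). The main test was limma's moderated test (two-sided, no block, with a variance trend; version 3.58.1, R 4.3.3) of 4 against 4 rates over all genes, with Benjamini-Hochberg adjustment at 0.05, and likewise over all transcripts. It was tested on simulated data whose series were drawn independently, so that check does not cover the correlation between series of a line. No filter on low values was applied. Alternatives were a replicate block, a correlation between series of a line with the same second label number, no trend, robust moderation, centred series, rates limited to -1 and 1, genes in range only, means over transcripts, the deposited score, and leaving out each series. Sequence features came from GENCODE transcripts matched by RefSeq accession, for genes with 1 transcript in range.

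The genes, the lists and the tests were chosen with earlier results of these data known. Values per series are given for genes chosen by rule: those past the threshold, the fastest, slowest and most different gene of each class, and those with all 4 rates of a line beyond 1. They are also given for genes and transcripts added after their values were seen, such as PTTG3P and the transcripts of SMC2.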

Additional observations from a re-analysis of the deposited data

Results flagged for a closer look

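In 4 of 30 groups of 4 series, taken over the 15 genes chosen by rule, 1 series stood apart from the other 3 by more than Dixon's critical value for 4 values. About 1 in 20 such groups, here 1.5, is set apart by chance alone. CDC25C was at 4.93 in series 4 of MDA-LM2, with the other 3 below 0.4. PRC1 was at 1.48 in series 2 of MDA-LM2. PLK4 was at -0.609 in series 2 of MDA-MB-231, with the other 3 between 4.91 and 6.03. Each of these PLK4 values is a mean of 2 transcripts with unlike rates. MKI67 was at 0.201 in series 4 of MDA-MB-231, towards the rates of MDA-LM2.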

How the results depend on the processing

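Counts of calls moved between fits, several of which refit the same rates and so could not move the differences. Same-numbered series of the lines did not deviate together, with correlations of deviations over genes in range from -0.0373 to -0.00799. The numbers are thus not read as pairs. With the replicate block, 250 genes were called slower in MDA-LM2, against 27 faster, among them 1 mitotic gene slower (AURKB) and 0 faster. With the correlation between series the counts were 344 and 35 genes, and 0 mitotic genes were faster. With robust moderation, and with genes in range only, 1 mitotic gene was slower (PTTG1 in both). The fits to genes in range held 46 of the 59 mitotic genes. AURKB was not among them and could not be called there. Centred series gave 434 faster genes, 7 faster mitotic genes, and medians of the mitotic genes of -0.00968 in MDA-LM2, against -0.0209 in MDA-MB-231. Genes in range with the correlation gave 1 slower and 0 faster genes, and with the replicate block, an alternative added after seeing the data, 3 and 8; neither called a mitotic gene (0 slower, 0 faster). The deposited score called 139 transcripts faster. The causes of these shifts were not tested.

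Leaving out 1 series in turn gave 406 to 1008 genes slower and 84 to 283 faster, 2 to 4 mitotic genes slower and 0 to 4 faster, and a median difference of the mitotic genes from -0.01 to 0.00192. The median rate of the mitotic genes ran from 0.146 to 0.162 in MDA-LM2 and from 0.162 to 0.174 in MDA-MB-231. The difference of CDC25C ran from -1.09 (without series 4 of MDA-LM2, adjusted p = 0.0108 by limma) to 0.45. Of 252 comparisons of the 15 genes chosen by rule with their values as reported, 248 kept the direction. Many of these directions could not change. The replicate block, the correlation, the variance trend, robust moderation and the choice of genes in range leave each gene's difference as it was. Means over transcripts also equal the medians for these genes. The count of kept directions is thus no measure of stability. In the same comparisons 20 lost a call and 5 gained one, CDC25C without series 4 of MDA-LM2 among them. The unknown read depth leaves the precision of single rates unknown.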
